A study of Mus musculus with 12 samples.

Results

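Runx1, Runx2, Sp7, Dlx3, Dlx5, Msx1, Msx2, Twist1 and Twist2 encode transcription factors of the osteoblast lineage. They were chosen by name, and all 9 were found among the 56350 genes of the count table. All 9 also passed the filter of more than 10 counts in at least 3 libraries, as did 16484 genes in all, but Msx2 passed it only through its 6 libraries from undifferentiated cells. RNAseq covered 12 libraries of MPC2, a conditionally immortalized mouse mesenchymal line grown from 1 clone, with 3 libraries in each of 4 conditions. Undifferentiated cells, called MSCs here, grew at 33 °C, and osteocytes were the same line after 3 weeks at 37 °C in osteogenic media with ascorbic acid and beta-glycerophosphate. Each cell type received vehicle (DMSO) or 50 µmol/L FG-4592 (Roxadustat) for 48 hours. FG-4592 inhibits the prolyl hydroxylases that mark hypoxia-inducible factors (HIFs) for degradation, so that HIF proteins accumulate. Temperature, media and time changed together with differentiation and cannot be told apart from it. The labels do not say whether the 3 libraries of a condition came from separate cultures, so p-values measure the spread between these libraries, which may be technical.

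Osteoblast differentiation is driven by a short chain of transcription factors. RUNX2 starts the osteoblast program, and SP7 (osterix) acts after it and is needed for bone formation. The homeodomain factors of the DLX and MSX families act around them, DLX5 mainly as an activator of bone genes and the MSX proteins mainly as repressors. The TWIST proteins bind RUNX2 and hold it inactive in early progenitors. RUNX1, better known from blood formation, shares its DNA site (ACCACA) with RUNX2 and is present in skeletal progenitors and cartilage.

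Total counts were between 52829185 and 68108470 per library. Levels are given as CPM, counts relative to the TMM-scaled library total, or as RPKM (CPM per kilobase of exon) where genes are compared with each other. FDR is the p-value of edgeR's quasi-likelihood test after Benjamini-Hochberg adjustment over the 16484 genes, and a gene was said to rise or fall at an FDR under 0.05. The label osteocyte was checked against 11 osteoblast and osteocyte markers. Sost was at 0 in all 12 libraries, Mepe was at 0 in all 6 osteocyte libraries, and Pdpn reached 1 count in 1 of them, where a count of 0 allows up to 0.0545 CPM. Phex was at 57.6 ± 6.32 CPM (SD, n = 3) in vehicle-treated osteocytes and 0.977 ± 0.116 CPM in vehicle-treated MSCs, and Dmp1 at 11.2 ± 2.30 and 1.19 ± 0.622 CPM. Bglap and Bglap2 also rose with differentiation in vehicle (log2 4.28 and 2.50), whereas Ibsp and Alpl fell (-0.74 and -0.33, FDR 0.00289 and 0.014) and Col1a1 did not pass the test (-0.03, FDR 0.840). Fgf23 was at 0.0475 ± 0.0683 CPM in MSCs and 0.0251 ± 0.0435 CPM in osteocytes with vehicle, where both were near the floor, and at 1.61 ± 0.316 CPM in FG-4592-treated osteocytes, the only condition in which it passed the filter. The 5 adipocyte markers (Adipoq, Plin1, Fabp4, Lpl and Cfd) all rose with differentiation, Cfd having passed the filter only through the osteocytes, and their summed level was 601 to 607 CPM in MSCs with vehicle and 802 to 829 CPM with FG-4592. In osteocytes it was 3524 to 4447 CPM with vehicle and 3835 to 4458 CPM with FG-4592. The 4 chondrocyte markers summed to 2.52 to 4.53 CPM in MSCs, mostly Col10a1, and to 53.8 to 72.8 CPM in vehicle-treated and 244 to 334 CPM in FG-4592-treated osteocytes, nearly all of it Col2a1, with Acan and Col9a1 near 0. Of the 6 stromal markers, Pdgfra, Eng and Cd44 were at 126 to 292 CPM on average in vehicle-treated MSCs, and Thy1 was at 0 in all 6 MSC libraries. Stromal Ly6a went from 216 ± 17.7 to 55.8 ± 10.1 CPM with differentiation in vehicle, and FG-4592 raised it to 396 ± 5.23 CPM in MSCs and 320 ± 18.9 CPM in osteocytes (log2 0.88 and 2.52, FDR 1.51e-06 and 5.97e-12). Nt5e rose from 0.464 ± 0.105 to 18.7 ± 1.53 CPM with differentiation in vehicle and by 0.80 on the log2 scale with FG-4592 in osteocytes (FDR 1.56e-05). The stromal list summed to 756 to 766 CPM in MSCs with vehicle and 854 to 875 with FG-4592, and to 714 to 756 CPM in osteocytes with vehicle and 924 to 953 with FG-4592. Summed endothelial, blood and muscle markers stayed at or under 8.65 CPM in every library. With FG-4592, Col2a1 (log2 2.23, FDR 7.05e-10) and Fabp4 (1.19, FDR 6.83e-07) rose in osteocytes, and Adipoq fell (-1.44, FDR 2.5e-07) and Lpl rose (0.45, FDR 3.52e-06) in MSCs. Markers of other cell types thus moved with differentiation and with FG-4592, and their part in the results below was not tested. In such bulk cultures fewer cells that express a gene and less RNA per cell cannot be told apart.

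Runx2 (ENSMUSG00000039153.17, chr17:44495987-44814797, minus strand, mm10) was at 128, 128 and 129 CPM in vehicle-treated MSCs and 117, 118 and 115 CPM in MSCs given FG-4592. In osteocytes with vehicle it was at 197, 191 and 181 CPM, and in FG-4592-treated osteocytes at 143, 149 and 144 CPM. The 4 conditions did not overlap. Runx2 was highest in vehicle-treated osteocytes and lower with FG-4592 in both cell types. Differentiation raised Runx2 1.48-fold in vehicle (log2 0.56 ± 0.04 SE, FDR 1.94e-08). In osteocytes FG-4592 lowered Runx2 1.31-fold (log2 -0.38 ± 0.04, FDR 2.13e-06). In MSCs the fall was 1.10-fold (log2 -0.14 ± 0.04, FDR 0.0217), and the FDR was 0.0727 to 0.149 when replicate 1, 2 or 3 of vehicle-treated MSCs or replicate 3 of FG-4592-treated MSCs was left out. Runx2 shares 5.87% of its exonic bases with the antisense transcript Runx2os1, whose counts could make up at most 0.560% of those of Runx2 in a library.

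Runx1 (ENSMUSG00000022952.17, chr16:92601466-92826149, minus strand, mm10) took a different course. It was at 94.7, 103 and 106 CPM in vehicle-treated MSCs and 111, 106 and 101 CPM in FG-4592-treated MSCs, and these 2 conditions overlapped. Vehicle-treated osteocytes had 182, 174 and 181 CPM, and FG-4592-treated osteocytes 341, 346 and 304 CPM, each above every library of the other conditions. FG-4592 raised Runx1 1.84-fold in osteocytes (log2 0.88 ± 0.06 SE, FDR 4.03e-09). The difference in MSCs was 0.07 ± 0.06 on the log2 scale (95% interval -0.06 to 0.19, FDR 0.409). Differentiation raised Runx1 1.77-fold in vehicle (FDR 7.64e-09) and 3.11-fold in FG-4592 (FDR 1.17e-12). The response in osteocytes exceeded that in MSCs by 0.82 on the log2 scale (FDR 3.25e-06). In osteocytes Runx1 thus rose with FG-4592 while Runx2 fell. The transcript Gm26626 shares 0.881% of the exonic bases of Runx1, with counts of at most 0.144% of its own.

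Because FG-4592 acts on HIF, the promoters of the members were searched for the HIF core motif, ACGTG or GCGTG, on both strands. RefSeq windows (GRCm38.p6, 250 bases before to 50 after a start site) were found for 6 of the 9 members and gave 7 windows: Runx1 (distal and proximal), Runx2, Msx1, Msx2, Twist1 and Twist2. Sp7, Dlx3 and Dlx5 were not matched. A core motif was found in 4 of the 7 windows and in 43.8% of all 32851 windows of the same length (ACGTG in 19.6%, GCGTG in 32.4%). The 4 were both Runx1 windows, Twist1 and Msx1 (GCGTG on the reverse strand, position -42). Neither Twist1 nor Msx1 passed the test for FG-4592 in either cell type in the main fit. The start site of the distal Runx1 promoter is preceded by the palindrome CACGTG, which reads ACGTG on both strands and is also a match to CANNTG, the E-box that TWIST proteins recognise. CANNTG occurred in 72.3% of all windows. That palindrome begins at position -71 from the RefSeq start site. The start site and the 75 bases before it lie inside an exon of the count table, and so does the palindrome. The 30 bases around that palindrome are shown with it in capitals (chr16:92826128-92826157, minus strand, 5′ to 3′).
Runx1 distal site: catcacttaagtCACGTGattggcaagagc

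The proximal Runx1 promoter held ACGTG on the reverse strand (CACGT, position -19 from the start site) and GCGTG on the forward strand (position -233), both in capitals in the 250 bases before the start site (chr16:92697330-92697579, minus strand). That start site lies 1 base outside the exons of the count table.
Runx1 proximal promoter: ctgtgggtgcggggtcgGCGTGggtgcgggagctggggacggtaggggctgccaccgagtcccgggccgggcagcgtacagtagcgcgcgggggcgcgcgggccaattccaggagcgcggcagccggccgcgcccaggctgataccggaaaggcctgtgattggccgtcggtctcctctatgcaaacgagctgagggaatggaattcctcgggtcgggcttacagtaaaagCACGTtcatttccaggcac

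The Runx2 window held neither core. It shared with the distal Runx1 window a stretch of 22 bases just after the start site, at chr17:44814588-44814609 and chr16:92826030-92826051 (both on the minus strand). It is shown for the 2 ACCACA sites, in capitals, that both genes carry there. ACCACA was found in 2 of the 7 member windows and in 16.8% of all windows.
Stretch in Runx1 and Runx2: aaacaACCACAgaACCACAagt
These matches describe letters only, and binding was not measured here.

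Sp7 (ENSMUSG00000060284.7, chr15:102356606-102367182, minus strand) was at 67.7, 66.5 and 65.3 CPM in vehicle-treated MSCs and at 37.2, 34.1 and 37.7 CPM with FG-4592. Osteocytes had 87.3, 94.4 and 90.0 CPM in vehicle and 52.8, 56.7 and 55.8 CPM with FG-4592. The libraries of the 4 conditions did not overlap, and every FG-4592 library, also those from osteocytes, lay below every vehicle library of MSCs. FG-4592 lowered Sp7 1.83-fold in MSCs (log2 -0.87 ± 0.05 SE, FDR 2.37e-09) and 1.64-fold in osteocytes (log2 -0.72 ± 0.05, FDR 1.66e-08). The responses differed by 0.16 on the log2 scale (95% interval -0.01 to 0.32, FDR 0.157), which did not pass the test. Differentiation raised Sp7 1.36-fold in vehicle and 1.52-fold in FG-4592 (FDR 3.18e-06 and 9.43e-08).

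**Figure D1:**
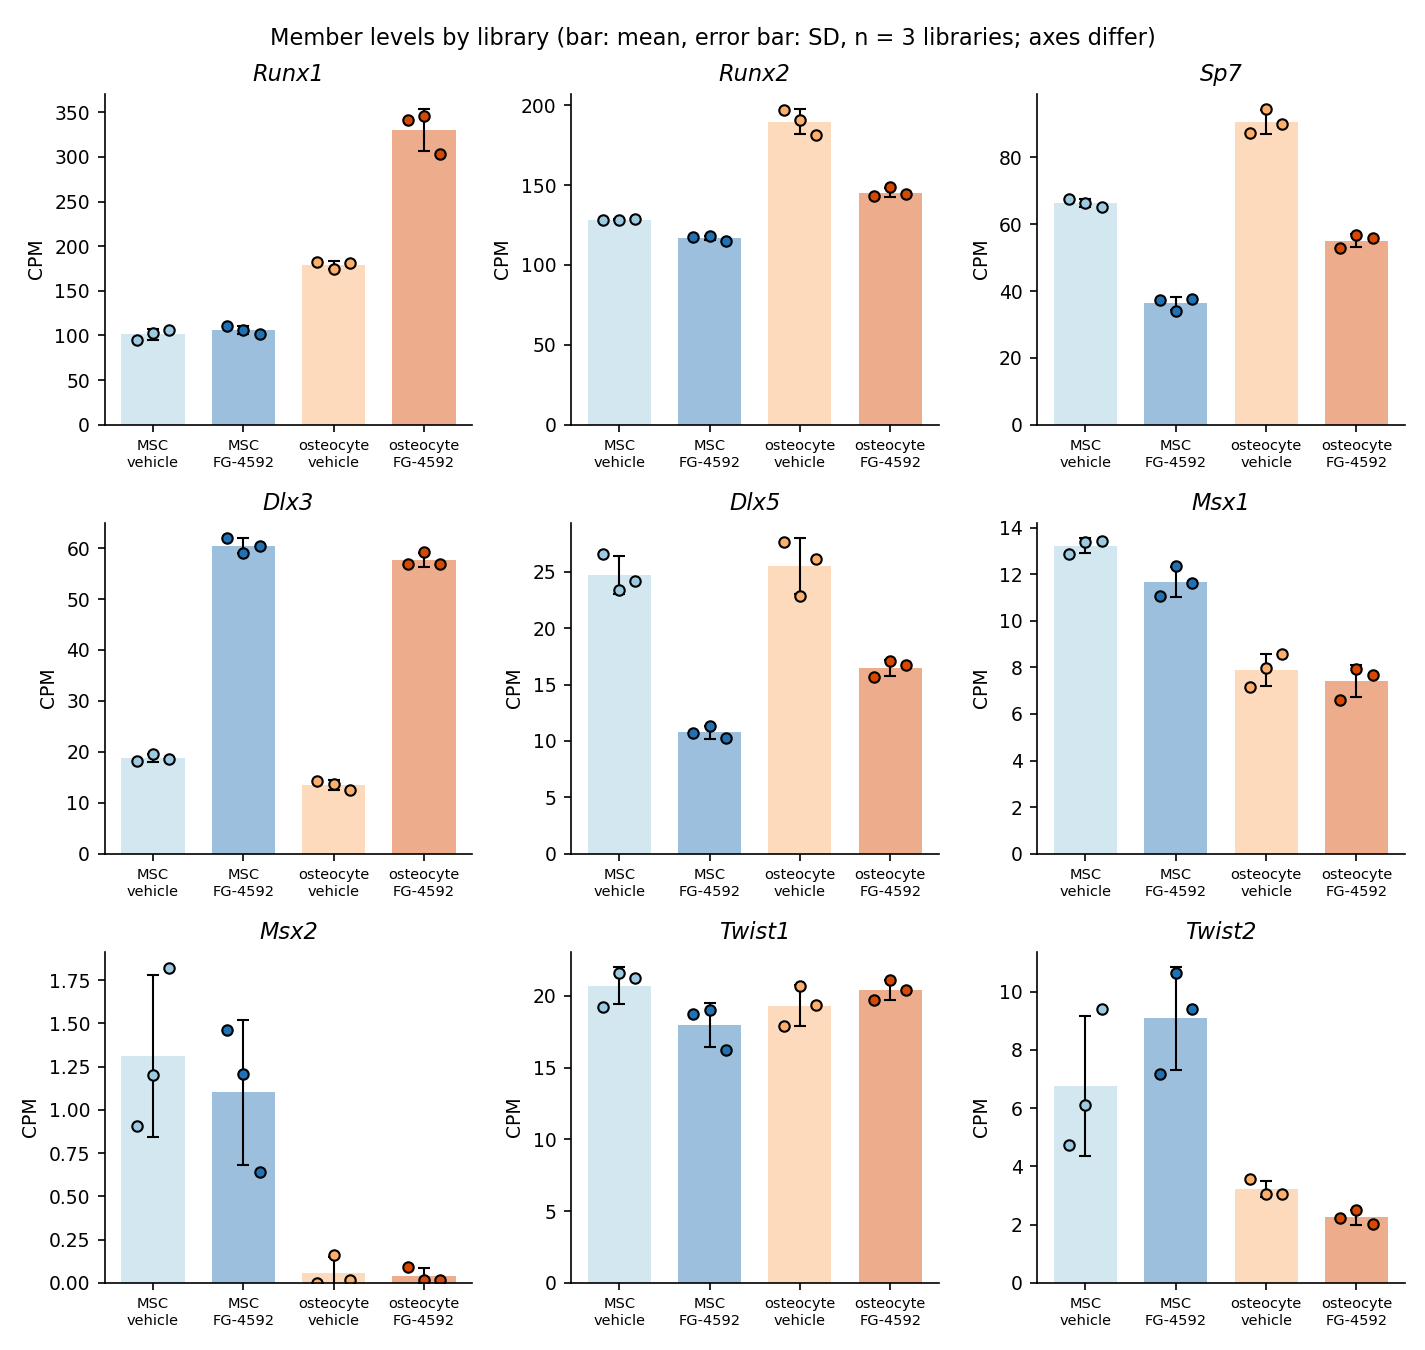
Levels of the 9 transcription factors in CPM (y axis, scales differ) in the 4 conditions (x axis), with a point for each library, bars for means and error bars for the SD (n = 3). Dlx3 stands near 60 CPM in both FG-4592 conditions and under 20 CPM in both vehicle conditions, Runx1 stands highest in FG-4592-treated osteocytes, and Sp7 and Dlx5 stand lower with FG-4592 in both cell types.

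The DLX pair moved in opposite directions. Dlx5 (ENSMUSG00000029755.10, chr6:6877805-6882085, minus strand), an activator of Runx2 and Sp7 transcription, was at 26.6, 23.3 and 24.2 CPM in vehicle-treated MSCs and 10.7, 11.4 and 10.2 CPM with FG-4592. Osteocytes had 27.6, 22.8 and 26.1 CPM in vehicle and 15.7, 17.1 and 16.7 CPM with FG-4592. Vehicle and FG-4592 did not overlap in either cell type, whereas the vehicle libraries of MSCs and osteocytes did. FG-4592 lowered Dlx5 2.29-fold in MSCs (log2 -1.20 ± 0.09 SE, FDR 1.59e-08) and 1.55-fold in osteocytes (log2 -0.63 ± 0.09, FDR 1.48e-05), and the fall was smaller in osteocytes by 0.57 on the log2 scale (FDR 0.00267). Without FG-4592, osteocytes and MSCs differed by 0.05 on the log2 scale (95% interval -0.13 to 0.23, FDR 0.673). In FG-4592 Dlx5 was 1.53-fold higher in osteocytes (FDR 1.64e-05).

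Dlx3 (ENSMUSG00000001510.8, chr11:95120119-95125296, plus strand), a homeodomain factor of osteoblast progenitors, teeth, hair and placenta, was at 18.2, 19.6 and 18.6 CPM in vehicle-treated MSCs and rose to 61.9, 59.1 and 60.4 CPM with FG-4592. In osteocytes it was at 14.3, 13.7 and 12.5 CPM in vehicle and 56.8, 59.2 and 56.9 CPM with FG-4592. Every FG-4592 library was far above every vehicle library, and the FG-4592 libraries of the 2 cell types overlapped. The rise was 3.21-fold in MSCs (log2 1.68 ± 0.06 SE, FDR 3.65e-12) and 4.27-fold in osteocytes (log2 2.10 ± 0.06, FDR 2.23e-13). It was larger in osteocytes by 0.41 on the log2 scale (FDR 0.00252). Dlx3 fell 1.40-fold with differentiation in vehicle (FDR 9.88e-06) and differed by -0.07 on the log2 scale in FG-4592 (95% interval -0.20 to 0.06, FDR 0.340). Of the members, Dlx3 had the largest fitted response to FG-4592 in either cell type.

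Msx1 (ENSMUSG00000048450.10, chr5:37820485-37824583, minus strand) was at 12.9, 13.4 and 13.4 CPM in vehicle-treated MSCs and 11.1, 12.3 and 11.6 CPM with FG-4592. Osteocytes had 7.17, 7.96 and 8.56 CPM in vehicle and 6.62, 7.93 and 7.68 CPM with FG-4592. Both osteocyte conditions lay below both MSC conditions. Differentiation lowered Msx1 1.68-fold in vehicle (log2 -0.74 ± 0.10 SE, FDR 1.18e-05) and 1.58-fold in FG-4592 (FDR 3.66e-05). FG-4592 differences were -0.18 (95% interval -0.39 to 0.03, FDR 0.170) in MSCs and -0.09 (-0.31 to 0.12, FDR 0.510) in osteocytes on the log2 scale, and neither passed the test. Scaled by library size alone, the difference in MSCs passed with an FDR of 0.0411.

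Msx2 (ENSMUSG00000021469.9, chr13:53466884-53473074, minus strand) had 50, 72 and 116 counts in vehicle-treated MSCs and 87, 81 and 41 with FG-4592. Vehicle-treated osteocytes had 0, 9 and 1 counts and FG-4592-treated osteocytes 6, 1 and 1. The level in MSCs was 1.31 ± 0.467 CPM in vehicle and 1.10 ± 0.420 CPM with FG-4592 (SD, n = 3). Osteocyte libraries were at or near the floor that a count of 0 allows (3 counts, 0.0447 to 0.0545 CPM per library). Since Msx2 passed the filter only through the MSCs, it had to differ between the cell types. The fitted fall with differentiation was 22.7-fold in vehicle (log2 -4.51, 95% interval -6.13 to -2.88) and 24.7-fold in FG-4592 (log2 -4.63, -6.31 to -2.95). Left without the osteocyte library of 9 counts the first became -7.03, and without the one of 6 counts the other became -5.89. At this depth a response of Msx2 to FG-4592 was not detectable in osteocytes (log2 -0.37, 95% interval -2.59 to 1.84), and it became 2.17 without the vehicle library of 9 counts. In MSCs it was -0.25 (95% interval -1.46 to 0.96, FDR 0.771).

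Twist1 (ENSMUSG00000035799.6, chr12:33957671-33959829, plus strand) varied least. It was at 19.2, 21.6 and 21.3 CPM in vehicle-treated MSCs and 18.7, 19.0 and 16.2 CPM with FG-4592, and at 17.9, 20.7 and 19.4 CPM in vehicle-treated osteocytes and 19.7, 21.1 and 20.4 CPM with FG-4592. None of the 4 comparisons of 2 conditions passed an FDR of 0.05, with log2 differences between -0.20 and 0.18. The largest of these was in MSCs with FG-4592 (log2 -0.20, 95% interval -0.38 to -0.02, FDR 0.0706), and it passed with an FDR of 0.0111 when libraries were scaled by size alone. The Twist1 promoter held ACGTG on the reverse strand (CACGT, in capitals, position -98 from the start site) in the 250 bases shown (chr12:33957421-33957670, plus strand), with no rise of Twist1 detected in either cell type.
Twist1 promoter: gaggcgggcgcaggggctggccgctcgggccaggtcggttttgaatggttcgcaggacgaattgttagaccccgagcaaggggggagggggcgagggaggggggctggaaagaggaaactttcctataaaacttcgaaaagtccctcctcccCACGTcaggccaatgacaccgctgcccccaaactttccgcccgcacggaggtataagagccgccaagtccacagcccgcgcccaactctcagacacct

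Twist2 (ENSMUSG00000007805.4, chr1:91801461-91848028, plus strand) was at 4.74, 6.10 and 9.41 CPM in vehicle-treated MSCs and 7.18, 10.7 and 9.40 CPM with FG-4592. Osteocytes had 3.55, 3.06 and 3.06 CPM in vehicle and 2.22, 2.50 and 2.01 CPM with FG-4592. The MSC conditions overlapped and spread widely, and the osteocyte conditions lay below them without overlap. Differentiation lowered Twist2 2.10-fold in vehicle (log2 -1.07 ± 0.22 SE, FDR 0.000579) and 4.05-fold in FG-4592 (log2 -2.02 ± 0.22, FDR 9.05e-07). FG-4592 differences were 0.43 in MSCs (FDR 0.120) and -0.52 in osteocytes (FDR 0.0729) on the log2 scale. Each missed the test, and their difference of -0.95 passed it (FDR 0.0327). Without replicate 3 of vehicle-treated MSCs, the highest of its condition, Twist2 rose by 0.78 with FG-4592 in MSCs (FDR 0.00418), and the fall with differentiation in vehicle shrank to -0.71 (FDR 0.00563).

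Twist2 shares 46.5% of its exonic bases with the antisense transcript Gm29100. Reads were counted without strand and for every gene that they overlapped, so the counts of Gm29100 could make up 7.19% to 37.2% of those of Twist2 at most. With all of them subtracted, an alternative chosen after seeing the data, Twist2 differed by -0.97 between osteocytes and MSCs in vehicle (FDR 0.0109), and the difference between its responses to FG-4592 was -1.07 (FDR 0.0742). The latter also lost its call in 7 of 12 fits that left out 1 library (replicates 1 and 2 of vehicle-treated MSCs, 2 and 3 of FG-4592-treated MSCs, 1 of vehicle-treated osteocytes, and 1 and 3 of FG-4592-treated osteocytes), with an FDR up to 0.0862. The 250 bases before the Twist2 start site, shown beside those of Twist1 because the paralogs differ in this respect, held neither HIF core (chr1:91801211-91801460, plus strand).
Twist2 promoter: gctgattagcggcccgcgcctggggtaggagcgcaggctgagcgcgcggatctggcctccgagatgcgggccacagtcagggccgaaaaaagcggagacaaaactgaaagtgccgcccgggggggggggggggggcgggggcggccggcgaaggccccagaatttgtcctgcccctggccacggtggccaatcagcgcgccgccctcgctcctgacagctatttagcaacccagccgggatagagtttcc

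**Figure D2:**
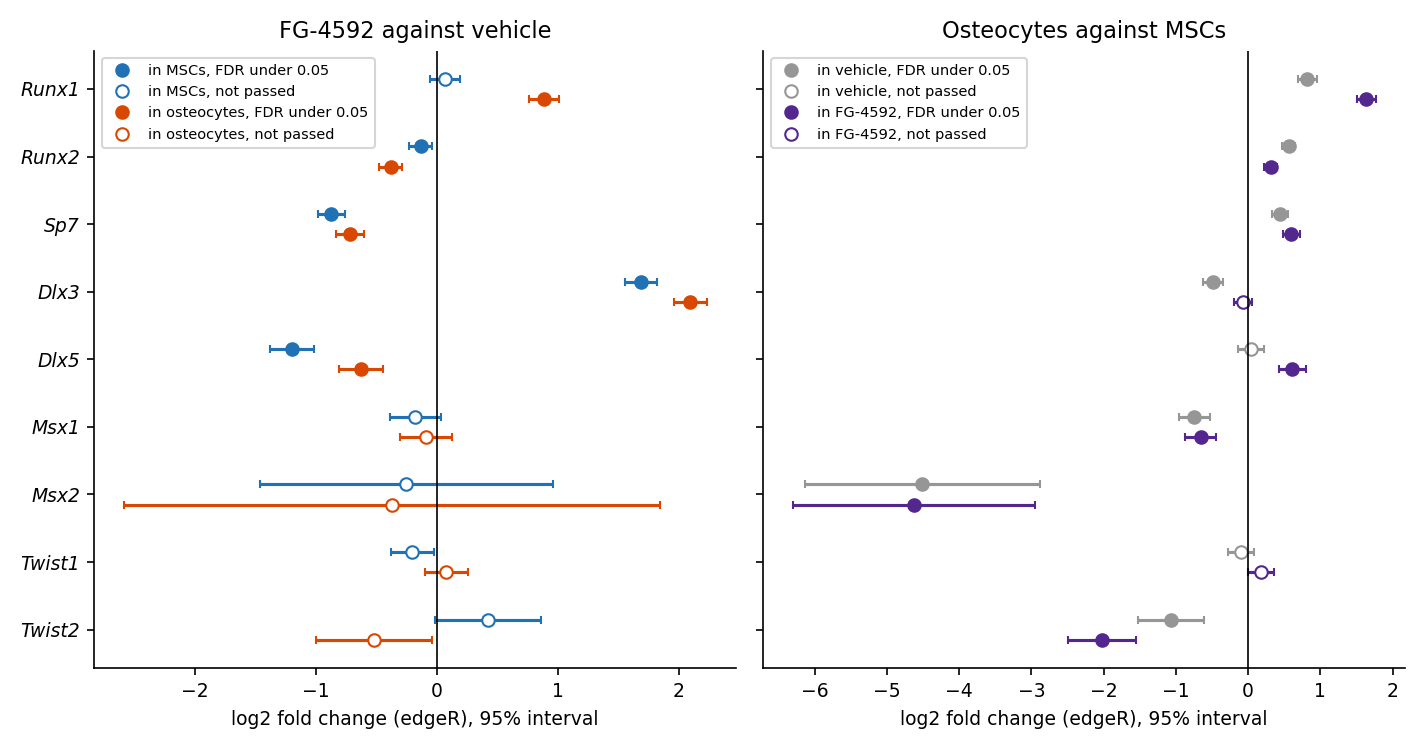
Log2 fold changes (x axis, edgeR, with 95% intervals) of the 9 genes (y axis) with FG-4592 in MSCs and osteocytes (left) and between osteocytes and MSCs in vehicle and in FG-4592 (right). Filled points passed an FDR of 0.05. Dlx3 lies farthest right with FG-4592 at 1.68 and 2.10, Runx1 lies at 0.07 in MSCs and 0.88 in osteocytes, and the intervals of Msx2 are the widest.

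Counted over the members, FG-4592 in MSCs raised 1 of 9 (Dlx3) and lowered 3 (Runx2, Sp7 and Dlx5), where 17.6% of all genes tested rose and 20.4% fell. Their median log2 change was -0.18, beside -0.05 over all genes. With the further cutoff of an absolute log2 fold change above 1, 2 members remained (Dlx3 and Dlx5) and 9.29% of all genes. In osteocytes FG-4592 raised 2 members (Runx1 and Dlx3) and lowered 3 (Runx2, Sp7 and Dlx5), where 21.9% and 22.0% of all genes rose and fell. The median was -0.24 over the 8 members other than Msx2, whose response was not detectable, beside 0.00 over all genes, and 1 member (Dlx3) passed both cutoffs, as 10.5% of genes did. The 3 genes that fell were the same in both cell types, but Runx2 in MSCs lost its call in some of the alternatives.

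Msx2, which the filter let pass only through the MSCs, was left out of the counts for differentiation. Of the other 8 members, differentiation in vehicle raised Runx1, Runx2 and Sp7 and lowered Dlx3, Msx1 and Twist2, where 26.0% of all genes rose and 24.9% fell. Of these 8 only Twist2 passed both cutoffs (15.9% of all genes), and their median was -0.03 beside -0.01. In FG-4592 Runx1, Runx2, Sp7 and Dlx5 were higher and Msx1 and Twist2 lower in osteocytes, where 30.5% and 25.3% of all genes were. Runx1 and Twist2 passed both cutoffs (18.3% of all genes), and the median of the 8 was 0.25 beside 0.03. These comparisons share their libraries with those of FG-4592. The response to FG-4592 was more positive in osteocytes for 3 members (Runx1, Dlx3 and Dlx5) and more negative for 2 (Runx2 and Twist2), with 13.3% and 11.0% of all genes. No member passed both cutoffs in that contrast with edgeR or DESeq2, where 5.01% of genes did with edgeR. For Twist1 the responses to FG-4592 differed by 0.28 on the log2 scale (95% interval 0.03 to 0.54, FDR 0.101), which did not pass the test.

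Per length, the order of the members changed with the treatment. In vehicle-treated MSCs Sp7 was highest at 19.6 ± 0.351 RPKM (SD, n = 3), followed by Runx2 (14.5 ± 0.0478), Twist1 (12.7 ± 0.796), Dlx5 (10.9 ± 0.749), Runx1 (8.42 ± 0.488) and Dlx3 (7.22 ± 0.280). Msx1 (4.27 ± 0.102), Twist2 (2.13 ± 0.757) and Msx2 (0.400 ± 0.142) came last in all 4 conditions. With FG-4592 in MSCs Dlx3 was highest at 23.2 ± 0.542 RPKM, above Runx2 (13.2 ± 0.165), and Twist1 (11.0 ± 0.950) and Sp7 (10.7 ± 0.576) overlapped. Dlx3 had thus moved from the sixth place to the first.

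In vehicle-treated osteocytes the order began with Sp7 (26.6 ± 1.05 RPKM), Runx2 (21.4 ± 0.893) and Runx1 (14.9 ± 0.351), and Twist1 (11.9 ± 0.870) and Dlx5 (11.3 ± 1.08) overlapped. With FG-4592 Runx1 was highest (27.5 ± 1.93), followed by Dlx3 (22.1 ± 0.520), and Runx2 (16.4 ± 0.336) and Sp7 (16.2 ± 0.598) overlapped. No other neighbours in these orders overlapped between their libraries. The RPKM of Twist2 includes reads that may belong to Gm29100.

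**Figure D3:**
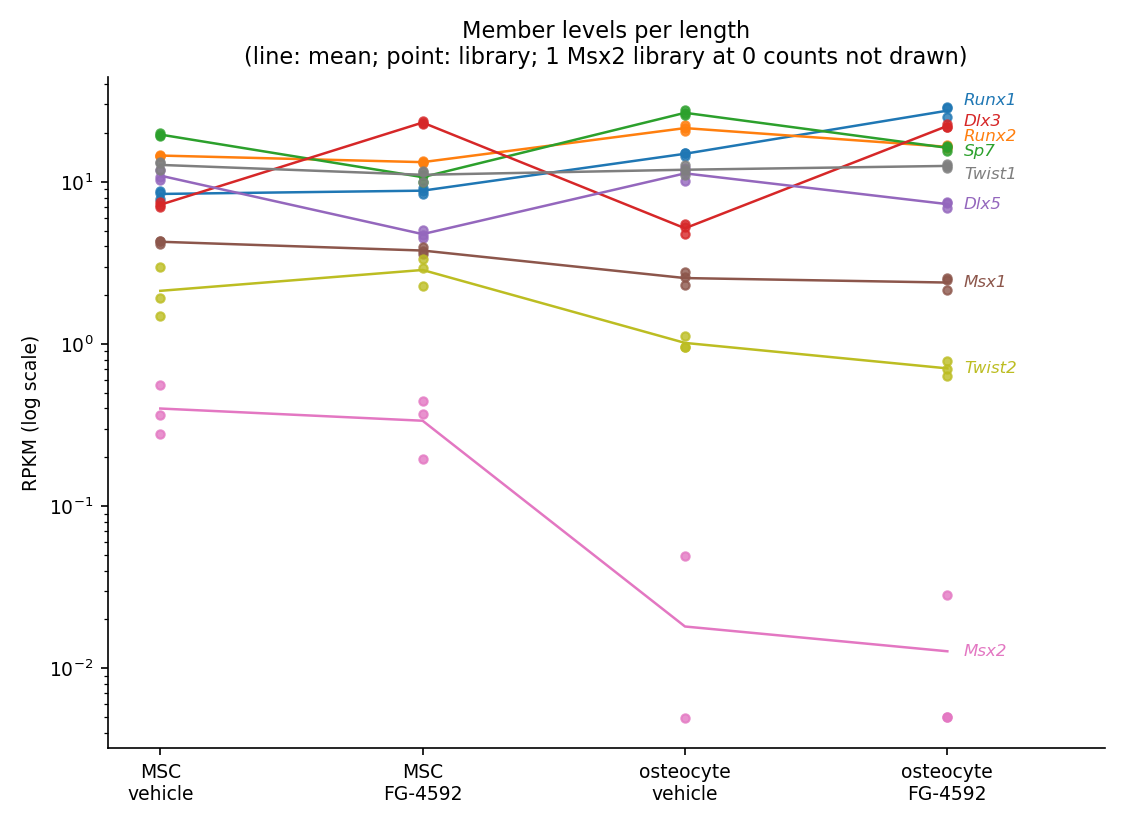
RPKM (y axis, log scale) of the 9 members in the 4 conditions (x axis), with points for libraries and lines through the means. Sp7 and Runx2 lead in both vehicle conditions, Dlx3 leads in FG-4592-treated MSCs, and Runx1 and Dlx3 lead in FG-4592-treated osteocytes.

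Ratios between paralogs showed the same shifts without dependence on the scaling of libraries. The log2 ratio of Runx2 to Runx1 (RPKM) was 0.79 ± 0.08 in vehicle-treated MSCs, 0.58 ± 0.05 with FG-4592, 0.53 ± 0.07 in vehicle-treated osteocytes and -0.74 ± 0.10 in FG-4592-treated osteocytes (SD, n = 3). Runx2 was thus 1.44-fold above Runx1 per length in vehicle-treated osteocytes and Runx1 1.67-fold above Runx2 after FG-4592. RPKM divides by all annotated exonic bases (8837 for Runx2 and 12025 for Runx1), not by those of the isoforms expressed. Orders and ratios between genes depend on that length. In CPM, Runx2 and Runx1 were at 190 and 179 in vehicle-treated osteocytes. That of Dlx5 to Dlx3 was 0.60 ± 0.15, -2.29 ± 0.10, 1.12 ± 0.17 and -1.60 ± 0.05 in the same order, so that Dlx3 exceeded Dlx5 in the FG-4592 libraries of both cell types and in none of the vehicle libraries. For Twist2 to Twist1 it was -2.64 ± 0.44, -1.97 ± 0.33, -3.55 ± 0.23 and -4.15 ± 0.14. Where libraries did not overlap, the exact two-sided permutation test gave p = 0.1 (adjusted p = 0.109 over 12 comparisons), the smallest that 3 against 3 libraries allow. They overlapped only for Twist2 to Twist1 with FG-4592 in MSCs (exact permutation p = 0.2). These ratios restate the member levels above, the comparisons share libraries, and other gene pairs were not examined. Msx2 to Msx1, at -3.48 ± 0.476 and -3.57 ± 0.640 in MSCs, was not tested because Msx2 was at or near the floor in osteocytes.

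**Figure D4:**
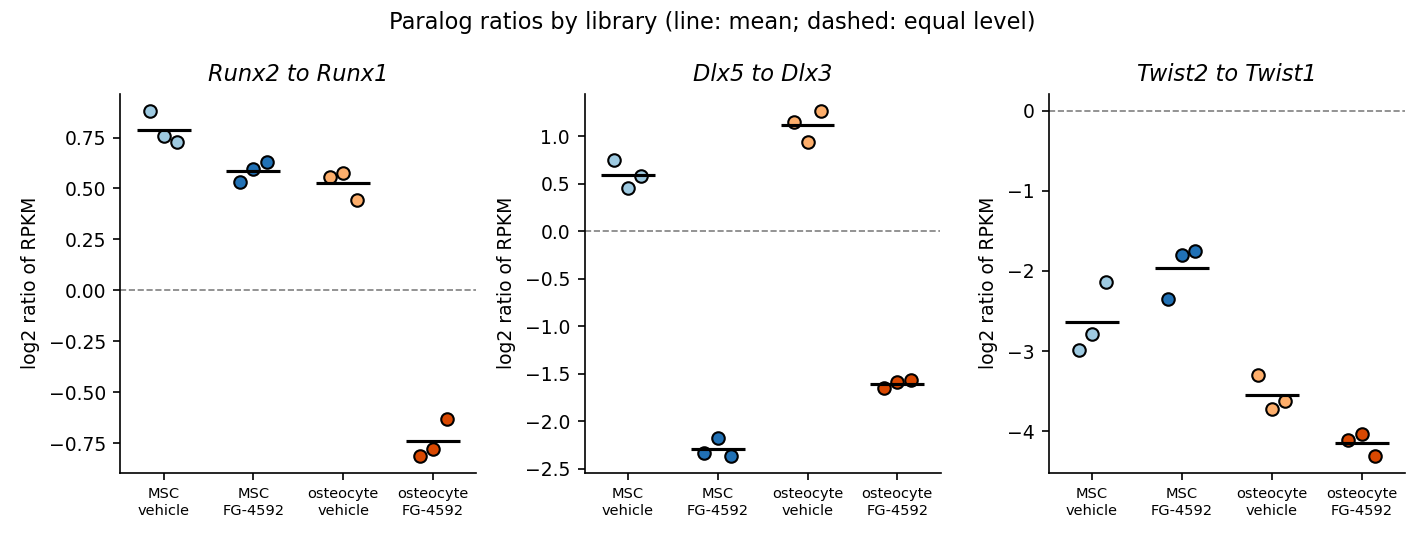
Log2 ratios of RPKM (y axis) between paralogs in each library of the 4 conditions (x axis), with lines at the means and a dashed line at equal level. The ratio of Runx2 to Runx1 lies below 0 in FG-4592-treated osteocytes only, and that of Dlx5 to Dlx3 lies below 0 in both FG-4592 conditions.

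Genes beside the members were examined next and chosen for naming after their values were seen. Dlx6 and the transcript Dlx6os1 lie 9237 and 6213 bases from Dlx5, and both share exonic bases with another gene. Dlx6 fell with FG-4592 in MSCs (log2 -1.22, FDR 5.42e-06) and in osteocytes (-0.95, FDR 7.32e-05), and so did Dlx6os1 (-1.40 and -0.52, FDR 1.29e-06 and 0.00800). The 3 transcripts of the Dlx5 and Dlx6 locus thus all fell in both cell types. Whether Dlx6 and Dlx6os1 share bases with each other was not examined, so their falls may rest in part on the same reads. Dlx4, 15151 bases from Dlx3, did not follow it in MSCs (-0.47, FDR 0.0562) and rose in osteocytes by 0.52 (FDR 0.0308), beside 2.10 for Dlx3. Supt3, whose locus overlaps that of Runx2 without shared exonic bases, fell with FG-4592 by 0.55 in MSCs and by 0.46 in osteocytes (FDR 0.0149 and 0.0297). The antisense transcripts Runx2os1 (0.15 and 0.46) and Runx2os2 (0.06 and 0.45) did not pass the test for either response, and Runx2os2 was lower in osteocytes in vehicle (log2 -2.58, FDR 0.00585), where Runx2 was higher.

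The tested genes whose centred log2 CPM came closest to that of each member over the 12 libraries, by root mean square difference among 7663 genes without exonic overlap, were Abhd12 (0.11) and Tns3 (0.11) for Runx1 and Abhd2 (0.06) and Phkb (0.07) for Runx2. For Sp7 they were Pdcd4 and Acsf2 (0.11 each), for Dlx3 Ninj1 (0.14) and Dipk2a (0.15), and for Dlx5 Sod3 (0.14) and Sec16b (0.15). Rps7 and Pmvk came closest to Msx1 (0.08 and 0.09), Scaf1 and Abhd8 to Twist1 (both 0.06), Snx7 and Camkk1 to Twist2 (0.26 and 0.27), and Dennd2c and Rnf157 to Msx2 (0.76 and 0.78). These distances were largest for Msx2 and Twist2, which also had the widest ranges over the 12 libraries (log2 5.84 and 2.38). The range of Twist1 was 0.41, so the distances do not rank the closeness of patterns between members.

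Partners and modulators of RUNX proteins were described next (16 genes, all tested). The medians given for this and the following lists stand beside medians of all genes of -0.05 in MSCs and 0.00 in osteocytes for FG-4592, and of -0.01 for differentiation in vehicle. Their counts stand beside shares of all genes that rose and fell of 17.6% and 20.4% with FG-4592 in MSCs, 21.9% and 22.0% in osteocytes, and 26.0% and 24.9% with differentiation in vehicle. Cbfa2t3, a corepressor, passed the filter only through the osteocytes and was left out of the counts. Of the other 15, FG-4592 raised 4 and lowered 3 in MSCs, and raised 8 and lowered 4 in osteocytes, with medians of 0.03 and 0.17. Cbfb, whose product joins RUNX proteins and strengthens their binding to DNA, fell by 0.27 in osteocytes (FDR 0.000466) and differed by 0.03 in MSCs (FDR 0.667). Smurf2, a ubiquitin ligase of the BMP pathway, went from 278 ± 17.8 to 1092 ± 11.5 CPM in osteocytes (log2 1.97, FDR 2.83e-14) and rose by 0.40 in MSCs (FDR 6.21e-06). The corepressor Tle3 rose by 0.96 and the deacetylase Hdac7 by 1.03 in osteocytes (FDR 8.62e-10 and 1.17e-09), and the coactivator Wwtr1 (TAZ) rose by 0.60 there (FDR 2.75e-07). Cbfa2t3 was at 0 in vehicle-treated MSCs, at 1.48 ± 0.278 CPM in vehicle-treated osteocytes and at 0.252 ± 0.0917 CPM in FG-4592-treated osteocytes. With differentiation in vehicle 5 of the 15 rose and 5 fell (median -0.09). Smurf2, Hdac7 and Cbfa2t3 share exonic bases with other genes.

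Of 9 TWIST partners (E proteins, ID and HAND factors), 7 were tested. The E proteins bind DNA together with TWIST, and the ID proteins bind E proteins and keep them off DNA. FG-4592 raised 1 and lowered 3 in MSCs, and raised 3 and lowered 3 in osteocytes, with medians of -0.07 and 0.13. Id2 went from 42.9 ± 6.47 to 134 ± 2.63 CPM in osteocytes (log2 1.65, FDR 9.77e-11) and rose by 0.79 in MSCs (FDR 7.46e-07), whereas Id1 fell by 0.85 in MSCs and by 1.02 in osteocytes (FDR 1.75e-05 and 2.42e-06) and Id3 by 0.76 and by 0.56 (FDR 2.46e-06 and 5.32e-05). Id4 fell from 1.24 ± 0.0694 to 0.179 ± 0.0751 CPM in MSCs (FDR 0.00119) and rose from 0.041 ± 0.0584 to 0.296 ± 0.0433 CPM in osteocytes (FDR 0.00436), where the vehicle level was at the floor, and it shares exonic bases with another gene. Differentiation in vehicle lowered 6 of the 7 and raised Tcf4 (log2 0.35, FDR 8.62e-06), with a median of -0.43, where 24.9% of all genes fell and 26.0% rose. Hand1 was at 0 in all 12 libraries.

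Among 5 other DLX and MSX genes, 4 were tested, and Dlx6 and Dlx4 gave the values above. Dlx1 fell with differentiation in vehicle from 3.65 ± 0.595 to 1.69 ± 0.389 CPM (log2 -1.11, FDR 0.000399), and it shares exonic bases with another gene. The median response of the 4 to FG-4592 was -0.39 in MSCs and -0.17 in osteocytes. Dlx2 did not pass the test for either response (0.16 and -0.12).

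Of 23 other transcription factors of the osteoblast lineage, 20 were tested. FG-4592 raised 5 and lowered 10 in MSCs (median -0.23) and raised 8 and lowered 6 in osteocytes (median 0.23). Mef2c exceeded 10 counts only in FG-4592 libraries (13, 16 and 17), so the filter fixed the direction of its response. It passed neither test (FDR 0.118 and 0.0570) and is not among the genes that rose or fell. Both medians include it and so rest in part on the filter. Fos fell by 1.43 in MSCs (FDR 0.00017). Snai2, a repressor of epithelial genes, went from 271 ± 4.30 to 123 ± 5.10 CPM in MSCs and from 111 ± 5.29 to 35.0 ± 3.47 CPM in osteocytes (log2 -1.14 and -1.66, FDR 5.25e-10 and 5.39e-12). The AP-1 gene Fosl1 rose from 6.64 ± 1.21 to 71.2 ± 4.14 CPM in MSCs and from 5.89 ± 1.59 to 57.4 ± 8.30 CPM in osteocytes (log2 3.42 and 3.29, FDR 1.11e-10 and 1.41e-10), and it shares exonic bases with another gene. Fosl2 rose by 0.27 in MSCs and by 1.59 in osteocytes (FDR 0.000227 and 1.59e-13). With differentiation in vehicle 7 rose and 6 fell, among them Fos (log2 1.74, FDR 4.14e-06), Snai2 (-1.29, FDR 6.11e-11) and Foxc2 (-1.04, FDR 1.18e-06), with a median of -0.02. In FG-4592 Fos (2.94, FDR 2.09e-08) and Snai1 (2.03, FDR 2.31e-11) were higher in osteocytes and Snai2 (-1.81, FDR 9.6e-13) and Lef1 (-1.26, FDR 2.88e-07) lower.

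Bone genes known to lie downstream of RUNX2 and SP7 split in their responses (19 genes, 16 tested). Tnfsf11 passed the filter only through vehicle-treated osteocytes, so that it had to be highest there, and it was left out of the counts. Of the other 15, FG-4592 in MSCs raised 2 and lowered 5 (median -0.21), where 17.6% and 20.4% of all genes did. In osteocytes 4 rose and 6 fell (median -0.01), where 21.9% and 22.0% of all genes did. Ibsp, a bone matrix protein, went from 59.6 ± 4.48 to 3.43 ± 0.493 CPM in MSCs (log2 -4.12 ± 0.22 SE, FDR 3.39e-10) and from 35.6 ± 1.57 to 12.2 ± 4.91 CPM in osteocytes (-1.55, FDR 5.91e-06). Alpl, the alkaline phosphatase of mineralization, fell by 1.99 in MSCs and by 0.83 in osteocytes (FDR 4.81e-10 and 7.48e-06). Phex, a phosphate-regulating peptidase, went from 57.6 ± 6.32 to 2.83 ± 0.871 CPM in osteocytes (log2 -4.35, FDR 7.98e-11).

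Dmp1 fell by 2.44 in both cell types (FDR 0.000555 and 2.12e-05), from 1.19 ± 0.622 CPM in MSCs and 11.2 ± 2.30 CPM in osteocytes. The osteocalcin genes Bglap and Bglap2 fell in osteocytes (log2 -1.28 and -1.43, FDR 0.000848 and 7.87e-05). Mmp13, a collagenase, rose from 79.9 ± 12.3 to 262 ± 20.8 CPM in osteocytes (log2 1.71, FDR 8.58e-10) and fell by 0.59 in MSCs (FDR 0.0137). Col1a1 and Col1a2, the chains of type I collagen, did not pass the test in either cell type, with log2 differences between -0.07 and 0.11. The cytokine Tnfsf11 (RANKL) was at 1.32 ± 0.422 CPM in vehicle-treated and 0.0748 ± 0.0678 CPM in FG-4592-treated osteocytes, a difference whose direction the filter fixed, and its decoy receptor Tnfrsf11b rose by 0.91 (FDR 0.000107). Differentiation in vehicle raised 9 of the 15 and lowered Ibsp and Alpl (median 0.80), where 26.0% and 24.9% of all genes did.

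**Figure D5:**
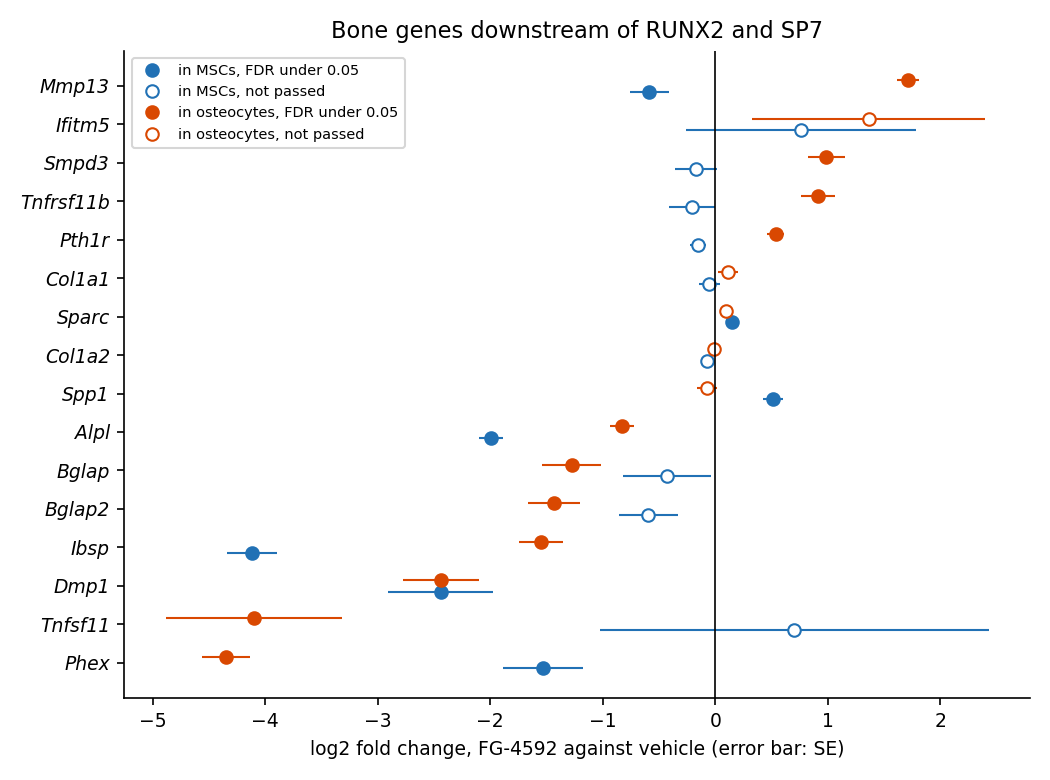
Log2 fold changes with FG-4592 (x axis, error bars SE) of the 16 tested bone genes (y axis) in MSCs and osteocytes. Filled points passed an FDR of 0.05. Ibsp lies lowest in MSCs at -4.12 and Phex lowest in osteocytes at -4.35, the collagen genes lie near 0, and Tnfsf11 and Ifitm5 carry the widest error bars in MSCs, where both had few counts.

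Transcription factors of other mesenchymal lineages were set beside the members (12 genes, 8 tested). FG-4592 raised 1 and lowered 3 in MSCs (median 0.10) and raised 3 and lowered 1 in osteocytes (median 0.31). Sox9, the cartilage factor, rose in both (log2 0.87 and 1.21, FDR 4.91e-08 and 8.16e-10). Cebpb and Cebpd, early factors of fat cell formation, went from 7.28 ± 0.979 to 28.8 ± 0.958 CPM and from 9.20 ± 0.480 to 33.3 ± 2.52 CPM in osteocytes (FDR 1.88e-07 and 8.26e-07) and did not pass the test in MSCs, and both share exonic bases with other genes. The other fat cell regulators, Cebpa and Pparg, fell in MSCs (log2 -0.70 and -0.21, FDR 1.11e-07 and 0.0049) and did not pass the test in osteocytes (-0.02 and -0.11), and Cebpa shares exonic bases too. With differentiation in vehicle 4 rose, among them Pparg (log2 0.73, FDR 7.21e-09), and Sox9 fell (-0.70, FDR 4.19e-07), with a median of 0.51, where 26.0% and 24.9% of all genes rose and fell. The muscle factors Myf5 and Myog were at 0 in all 12 libraries.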

How the data were processed

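RNAseq of 12 MPC2 libraries, 3 in each of 4 conditions, was analysed. The authors mapped paired reads to mm10 with STAR 2.7.2a and counted uniquely mapped pairs on Gencode M22 genes with featureCounts (Subread 1.6.2), for every gene overlapped and with no strand option, and they deposited raw counts without normalization. Shared reads therefore raise the counts of overlapping genes. Among 56350 genes, a gene was tested when 3 or more libraries held over 10 counts (16484 genes), with edgeR 4.0.16 (TMM, quasi-likelihood, 1 coefficient per condition, 8 residual degrees of freedom) in R 4.3.3. A floor of 3 counts was 0.0447 to 0.0545 CPM and covers counting error only. Exonic overlaps came from GenomicRanges 1.54.1, and promoters from RefSeq (GRCm38.p6). Scripts were tested on simulated data. Members and lists were chosen with earlier results of these data known. Genes named beside the members were, per list and comparison, up to 2 per direction with the largest changes past both cutoffs and a mean of at least 50 counts, and the 2 closest patterns per member. Other list genes and neighbours were named after their values were seen. No 2 libraries of a condition agreed within sampling noise (chi-square per degree of freedom at least 9.89). Alternatives were DESeq2 1.42.0, the likelihood ratio test, other scaling and filters, removal of overlapping genes, a replicate block, the 6 libraries compared and each library left out.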

Additional observations from a re-analysis of the deposited data

Results flagged for a closer look

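The responses of 5 members to FG-4592 differed between the cell types by the interaction contrast of edgeR's quasi-likelihood test, given as osteocytes minus MSCs on the log2 scale. For Runx1 the difference was 0.82 (FDR 3.25e-06), with a response of 0.88 in osteocytes and 0.07 in MSCs. For Dlx5 it was 0.57 (FDR 0.00267), with a fall in both cell types that was smaller in osteocytes. Dlx3 differed by 0.41 (FDR 0.00252), with a rise in both that was larger in osteocytes. Runx2 differed by -0.25 (FDR 0.00718), with a larger fall in osteocytes. Twist2 differed by -0.95 (FDR 0.0327), with a response of 0.43 in MSCs and -0.52 in osteocytes, neither of which passed the test alone, and without 7 of the 12 libraries, each left out in turn, the FDR was above 0.05.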

How the results depend on the processing

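No member value that passed the test changed sign under any alternative. The counts here are over all 9 members. Each count for differentiation includes Msx2, whose difference the filter fixed, and is lower by 1 without it. When the genes that share exonic bases were left out, Runx1, Runx2 and Twist2 were removed by construction, so that 3 members passed the FDR with FG-4592 in osteocytes, 4 with differentiation in vehicle, 4 with differentiation in FG-4592 and 2 in the difference of responses, and 1 member passed both cutoffs in each differentiation comparison. With the counts of overlapping genes subtracted, 1 member passed both cutoffs with differentiation in vehicle. Leaving out single libraries gave 1 to 2 members past both cutoffs with differentiation in vehicle (1 without replicate 3 of vehicle-treated MSCs) and 0 to 1 in the difference of responses, where Twist2 passed without replicate 3 of vehicle-treated MSCs, replicate 1 of FG-4592-treated MSCs, replicate 2 of vehicle-treated osteocytes or replicate 2 of FG-4592-treated osteocytes. With no filter Runx2 in MSCs lost its call (FDR 0.0771) and Twist2 in MSCs gained one (FDR 0.0464). The difference of Twist2 with FG-4592 in osteocytes passed with DESeq2 (FDR 0.0407), library size alone (0.0352), no filter (0.0163) and only the 6 libraries compared (0.0442), and its FDR over all alternatives was 0.0163 to 0.187. Deviations of same-numbered replicates correlated at -0.0528 to 0.0543, so they share only a number, and with the replicate block the members past both cutoffs were 2 with FG-4592 in MSCs and 1 in osteocytes, as without it, while 1444 and 1678 genes in all were called, against 1532 and 1732. No call of a member changed with the block. The order of levels per length held with library size alone, and with medians Sp7 and Runx2 changed places in FG-4592-treated osteocytes (34 of 36 places kept). Low counts limited Msx2, most of all in osteocytes, where its response to FG-4592 was between -1.65 and 2.17 over the alternatives and never passed the test, and in MSCs, where it was between -0.51 and 0.09.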
